A study of Homo sapiens with 4 samples.

Results

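The 39 genes described here encode the machinery that copies DNA in S phase, together with the enzymes that supply its nucleotides, the regulators that start it and the pair of proteins that copies DNA methylation behind the fork. They were chosen by exact match of their symbols, and all 39 were found among the 20457 features of the series. The samples were 4 libraries of HEK293, a standard laboratory line that was grown out of human embryonic kidney. Of these, 2 libraries came from cells given a negative control siRNA (siControl, labelled WT) and 2 from cells given an siRNA against CNOT4 (siCNOT4, labelled CNOT4 knockdown). Both groups received 10 nM siRNA, were taken at 72 h, and came from the same line in standard serum-containing medium. CNOT4, a RING-type ubiquitin ligase, works beside the CCR4-NOT deadenylase, which shortens mRNA tails, and the series asked whether it takes part when codon usage shapes expression. The knockdown is a transient one in a whole culture, which still holds CNOT4 mRNA, and the labels do not say whether the libraries of a group came from separate cultures.

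Replication is prepared in G1, when the origin recognition complex (ORC) binds origins and, with CDC6 and CDT1, loads the ring-shaped MCM2-7 helicase. Cyclin E with its kinase partner and E2F transcription factors drive entry into S phase, when MCM10, CDC45 and the GINS complex turn the loaded rings into active helicases. Polymerase alpha-primase lays primers, the RFC clamp loader places the PCNA clamp, polymerases delta and epsilon extend, and FEN1 and LIG1 finish the lagging strand. Many of these genes are textbook targets of E2F, whose sites in promoters resemble TTTGGCGC or TTTCCCGC.

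Such E2F-type letters were common in the promoters of these genes. RefSeq promoter windows of the GRCh38.p14 assembly, from 250 bases before to 50 after the start, were found for 35 of the 39 genes. They were searched on both strands for TTTGGCGC, TTTCCCGC, TTTGCCGC and TTTCGCGC. TTTCGCGC and TTTGGCGC can each overlap a second match on the opposite strand, as in TTTGGCGCGAAA. At least 1 match was present for 18 of the 35 genes (51.4%), against 27.7% of 65 genes of a wider replication list, 9.09% of 33 mitosis genes, 6.66% of 10045 measured genes and 3.31% of all 35116 promoters of the table. The windows below, each of 30 bases and read 5′ to 3′ on the gene's own strand with the matched letters in capitals, belong to 4 pairs of partner genes whose TPM ratio to each other differed between the groups, with no overlap. In each pair, the gene with the larger siCNOT4 to siControl difference is first.
CDC6: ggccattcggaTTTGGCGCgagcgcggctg
CDT1: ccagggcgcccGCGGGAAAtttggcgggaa
DNMT1: catcggtttccGCGCGAAAagccggggcgc
UHRF1: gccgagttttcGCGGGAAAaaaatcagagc
MCM6: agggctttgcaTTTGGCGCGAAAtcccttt
MCM2: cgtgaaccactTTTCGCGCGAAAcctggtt
GINS1: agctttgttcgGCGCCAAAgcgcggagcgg
GINS2: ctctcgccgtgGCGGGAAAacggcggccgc
The CDC6 window lies at chr17:40287875-40287904 on the plus strand, the CDT1 window at chr16:88803743-88803772 on the plus strand, the DNMT1 window at chr19:10194937-10194966 on the minus strand and the UHRF1 window at chr19:4909476-4909505 on the plus strand. The MCM6 window lies at chr2:135876577-135876606 on the minus strand, the MCM2 window at chr3:127598402-127598431 on the plus strand, the GINS1 window at chr20:25407667-25407696 on the plus strand and the GINS2 window at chr16:85688967-85688996 on the minus strand. The MCM6 and MCM2 windows each hold a pair of overlapping matches on opposite strands, and MCM6 holds a second such pair elsewhere in its promoter. The pairs shown were chosen among those in which both genes hold a match. Other pairs with a match in both genes overlapped, such as MCM7 to MCM2 and POLA2 to POLA1. Of all pairs of tested features in the members' TPM range, 70.2% did not overlap. Whether the matches bear on the ratios was not tested. Over the 39 genes, the median log2 fold change was 0.38 for the 18 with a match and 0.43 for the 17 without one, and the table had no entry for MCM4, MCM5, GINS4 and CCNE2.

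The values are TPM, a length-corrected transcript abundance: read counts divided by gene length and scaled by the authors to 1000000 in each library, so levels can be compared between genes. Fold changes are differences of log2(TPM + 1), siCNOT4 minus siControl, tested with limma over the 14208 features with a mean of at least 1 TPM and called at a Benjamini-Hochberg adjusted p under 0.05. The tables hold no read totals, so no counting interval is given. CNOT4 itself was measured at 6.43 and 4.73 TPM in siControl and 3.38 and 3.81 TPM in siCNOT4, lower in both knockdown libraries, with a log2 fold change of -0.51 (SE 0.26) and a limma adjusted p of 0.184. Relative to the median of all features its difference was -1.01, and it passed the test under each of 4 other scalings (adjusted p 0.0113 to 0.0414). The median log2 fold change of all features was 0.50, so most features stood higher in siCNOT4 as deposited, and a value near 0.50 is the typical one of these tables. The siControl libraries differed from each other by a median of 0.38 with an SD of 0.48 over features, against -0.030 and 0.20 for the siCNOT4 pair. Features above 0 numbered 17661 and 17531 in siControl and 18667 and 18629 in siCNOT4. Of the HEK293 markers, NEFL stood at 307 to 384 TPM and LIN28B at 22.1 to 74.2 TPM in the 4 libraries, while NEFM was under 1 TPM. The others were NEFH at 1.57 to 3.07 TPM, PAX2 at 1.10 to 1.91 TPM and INA at 5.62 to 20.8 TPM, of which INA rose by 1.32 (SE 0.32) at a limma adjusted p of 0.0496. The 4 differentiated kidney markers found, of 6 listed, were all under 1 TPM. The 7 markers of other cell types summed to 2.45 and 2.19 TPM in siControl and 8.89 and 10.9 TPM in siCNOT4. Of these, COL1A1 (0.906 to 6.60 TPM) and DES (0.927 to 3.54 TPM) rose (limma adjusted p 0.0248 and 0.0270), while the defining leukocyte, liver, endothelial and basal epithelial markers PTPRC, CD3E, ALB, PECAM1 and KRT5 were at or near 0. Their part in the results below was not tested.

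The median difference of the replication genes as a group was near that of other genes of the same level as deposited. Their TPM summed to 4853 and 4214 in siControl and to 5391 and 5630 in siCNOT4, which is 0.485% and 0.421% of the total against 0.539% and 0.563%. The median log2 fold change of the 39 genes was 0.43 (range -0.24 to 1.40), against 0.50 for all features and 0.42 for the 7683 tested features in the same range of mean TPM. Differences were positive for 33 genes and negative for 6, and 10 genes (25.6%) exceeded the median of all features, where 3359 of the 7683 features (43.7%) in the same range of TPM did. Whether these shares differ was not tested. Of the 39, 1 (2.56%) passed the test, CDC6, which rose. Over all tested features 12.6% passed, 11.3% as higher and 1.30% as lower. At an unadjusted p under 0.05 there were 15 replication genes, all higher, of 39, where 38.0% of all features were higher at that level. Both siCNOT4 libraries lay above both siControl libraries for 25 genes (background 66.4%) and below for 1, RFC2 (background 10.6%), while the groups overlapped for 13. These shares are close to or under those of all features. In RNA from whole cultures, a larger share of cells in S phase and more of these RNAs in each cell cannot be told apart.

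**Figure D1:**
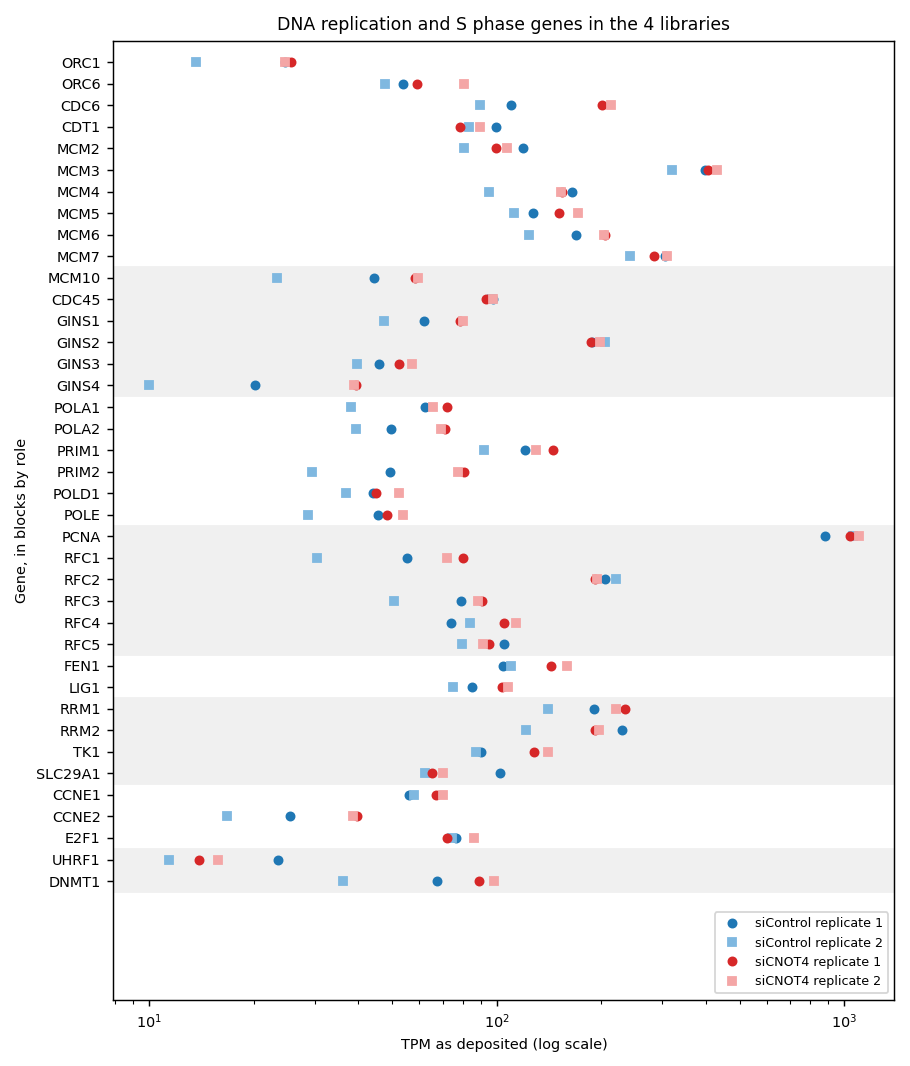
TPM as deposited (log axis) of the 39 genes in blocks by role, with 1 point for each library: blue for siControl, red for siCNOT4, circles for replicate 1 and squares for replicate 2. PCNA stands highest at 882 to 1102 TPM, and the siControl points lie farther apart than the siCNOT4 points for 33 of the 39 genes.

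Levels spanned from PCNA, the sliding clamp, with a mean of 1023 TPM over the 4 libraries, to UHRF1, a reader of hemimethylated DNA, with 16.2 TPM. MCM3 (387 TPM) and MCM7 (285 TPM) came next after PCNA, and ORC1 (22.1 TPM) and GINS4 (27.1 TPM) were next to UHRF1 at the low end.

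Among the origin licensing genes, CDC6, the ATPase that brings the MCM ring to ORC, stood apart. It was measured at 110.0 and 89.5 TPM in siControl and 201 and 213 TPM in siCNOT4. Both siCNOT4 libraries lay above both siControl libraries, with a 2.08-fold ratio of the mean TPM. The log2 fold change of 1.05 (SE 0.17) reached a limma adjusted p of 0.0268, and 0.55 remained relative to the median of all features. The call ended under TMM scaling (0.45, limma adjusted p 0.108), median centring (0.49, adjusted p 0.149) and removal of the length and GC trend (0.37, adjusted p 0.121). It also ended without siCNOT4 replicate 1 (adjusted p 0.104) or replicate 2 (adjusted p 0.159), where the fold changes were 1.09 and 1.01. It held under quantile normalization (adjusted p 0.0257). CDT1, the other loading factor, whose activity is held back by geminin, was measured at 99.6 and 83.3 TPM in siControl and 78.3 and 89.3 TPM in siCNOT4. Its groups overlapped, with siCNOT4 replicate 1 lowest and siControl replicate 1 highest, and the log2 fold change was -0.12 (SE 0.18).

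The ORC subunits differed in how their libraries fell. ORC1, the largest subunit and an ATPase, was measured at 24.6 and 13.6 TPM in siControl and 25.6 and 24.6 TPM in siCNOT4, where siControl replicate 2 was low and the other libraries alike. ORC6, the smallest subunit, was measured at 53.9 and 47.8 TPM in siControl and 59.1 and 80.8 TPM in siCNOT4, with siCNOT4 replicate 2 above the rest. Their log2 fold changes were 0.43 (SE 0.32) and 0.44 (SE 0.22), with limma adjusted p of 0.326 and 0.172.

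The 6 subunits of the MCM2-7 ring, which unwinds the duplex ahead of the polymerases, were each measured at 80.6 TPM or more in every library. MCM6 had the largest difference, at 169 and 124 TPM in siControl and 205 and 204 TPM in siCNOT4, which is 0.50 (SE 0.19) as a log2 fold change. MCM5 was measured at 127 and 112 TPM in siControl and 152 and 171 TPM in siCNOT4, and MCM3 at 397 and 319 TPM in siControl and 405 and 429.6 TPM in siCNOT4. In these 3 genes the siCNOT4 libraries lay above both siControl libraries, by a narrow margin in MCM3, where siControl replicate 1 came close. MCM4 was measured at 165 and 95.1 TPM in siControl and 154 and 153 TPM in siCNOT4, MCM7 at 306 and 241 TPM in siControl and 284 and 309 TPM in siCNOT4 and MCM2 at 119 and 80.6 TPM in siControl and 99.8 and 107 TPM in siCNOT4. In all 3 the groups overlapped. SiControl replicate 2 was the lowest library of each, and siControl replicate 1 was the highest in MCM4 and MCM2. Log2 fold changes of the ring subunits ran from 0.075 for MCM2 to 0.50 for MCM6, none above the median of all features, and their limma adjusted p ran from 0.102 to 0.805.

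Among the factors that activate the helicase, GINS4 had the largest difference of all 39 genes. GINS4, the SLD5 subunit of the GINS complex that holds CDC45 to the MCM ring, was measured at 20.2 and 10.0 TPM in siControl and 39.5 and 38.9 TPM in siCNOT4. The siCNOT4 libraries were almost equal and lay above both siControl libraries, which themselves differed by 0.94 on the log2 scale. The log2 fold change of 1.40 (SE 0.35) had a limma adjusted p of 0.0504, just over the threshold. It passed under quantile normalization (0.88, limma adjusted p 0.0362) and with the length and GC trend removed (0.80, adjusted p 0.0249). It did not pass under TMM scaling (0.82, adjusted p 0.0664) or median centring (0.84, adjusted p 0.0585). With a pseudocount of 0.1, no filter or a filter at 5 TPM it also stayed over the threshold (adjusted p 0.0669, 0.0905 and 0.0697). Antisense transcripts share 21.2% of the GINS4 transcript, 22.9% of GINS3 and 21.4% of MCM2, and whether the counting used strand is not given in the sources used here.

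The other GINS subunits had smaller differences. GINS1 (PSF1) was measured at 61.9 and 47.4 TPM in siControl and 78.7 and 80.0 TPM in siCNOT4, and GINS3 (PSF3) at 45.8 and 39.7 TPM in siControl and 52.3 and 56.9 TPM in siCNOT4. For both, the siCNOT4 libraries were above. GINS2 (PSF2), the most abundant subunit, was measured at 189 and 205 TPM in siControl and 187 and 198 TPM in siCNOT4, where the groups overlapped. Their log2 fold changes were 0.54 (SE 0.20), 0.35 (SE 0.19) and -0.029 (SE 0.14).

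MCM10, a scaffold needed for helicase activation, was measured at 44.5 and 23.3 TPM in siControl and 58.3 and 59.5 TPM in siCNOT4. The siCNOT4 libraries lay above, and siControl replicate 2 was far under replicate 1. CDC45, the helicase cofactor, was measured at 97.3 and 97.1 TPM in siControl and 93.3 and 97.8 TPM in siCNOT4, with 3 libraries nearly equal and siCNOT4 replicate 1 slightly lower. The log2 fold changes were 0.85 (SE 0.32) for MCM10 (limma adjusted p 0.1002) and -0.025 (SE 0.16) for CDC45.

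**Figure D2:**
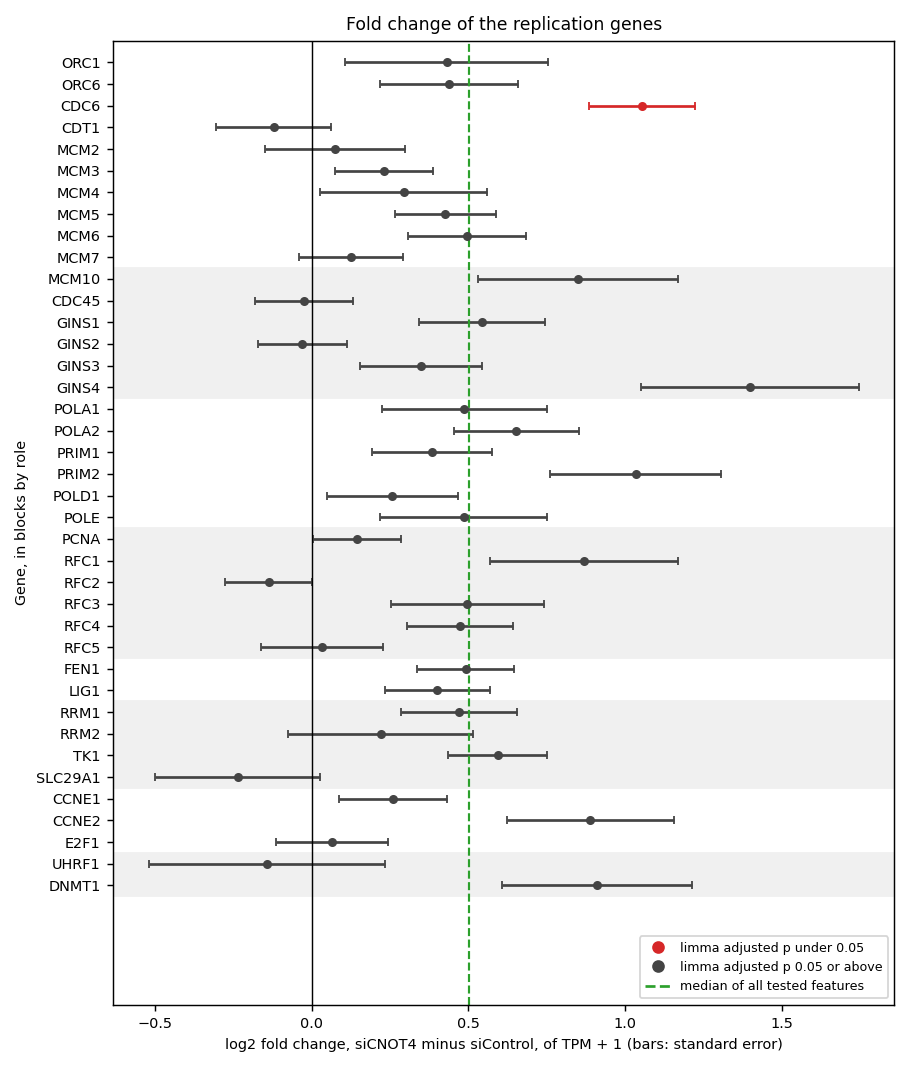
Log2 fold change of TPM + 1, siCNOT4 minus siControl, of the 39 genes in blocks by role, with bars for the standard error from limma, a dashed line at the median of all tested features and red for an adjusted p under 0.05. CDC6 is the red point at 1.05, GINS4 is farthest right at 1.40, and most genes lie between 0 and the dashed line at 0.50.

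All 6 polymerase and primase genes had both siCNOT4 libraries above both siControl libraries as deposited, as did 66.4% of all features. Under TMM scaling PRIM2 alone was above, and PRIM1 and POLD1 were below. After median centring PRIM2 was above and POLD1 below, and after quantile normalization POLA2 and PRIM2 were above and POLD1 below. With the length and GC trend removed, POLA2 and PRIM2 were above and POLA1 and POLE below. PRIM2, the large primase subunit that anchors the RNA primer, was measured at 49.4 and 29.5 TPM in siControl and 80.8 and 77.7 TPM in siCNOT4, which is 1.03 (SE 0.27) as a log2 fold change (limma adjusted p 0.0550). The siCNOT4 values agreed closely, and siControl replicate 2 was the lowest. A pseudogene copy matches part of PRIM2 at 98.8% identity and another annotated transcript part of it at 96.0%, so its count is uncertain where reads fit both. PRIM1, the catalytic primase subunit, was measured at 120.4 and 92.0 TPM in siControl and 146 and 130.1 TPM in siCNOT4. POLA1, the catalytic subunit of polymerase alpha, was measured at 62.2 and 38.2 TPM in siControl and 72.1 and 65.6 TPM in siCNOT4, and its partner POLA2 at 49.6 and 39.3 TPM in siControl and 70.9 and 69.2 TPM in siCNOT4. The POLA1 margin was narrow, since siControl replicate 1 was near siCNOT4 replicate 2, while POLA2 had a clear gap. Log2 fold changes were 0.38 (SE 0.19), 0.49 (SE 0.26) and 0.65 (SE 0.20). Other annotated transcripts on the same strand share 53.8% of POLA2 and 26.0% of PRIM1, as 29.4% of RRM2 is shared, so reads there could have been split between genes.

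POLD1, the catalytic subunit of the lagging-strand polymerase delta, was measured at 44.1 and 37.0 TPM in siControl and 44.9 and 52.3 TPM in siCNOT4. POLE, the catalytic subunit of the leading-strand polymerase epsilon, was measured at 45.6 and 28.6 TPM in siControl and 48.3 and 53.8 TPM in siCNOT4. In both, siControl replicate 1 lay just under siCNOT4 replicate 1. The log2 fold changes of 0.26 (SE 0.21) and 0.48 (SE 0.27) had limma adjusted p of 0.359 and 0.203.

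PCNA and the 5 subunits of the clamp loader did not share a pattern. PCNA was measured at 882 and 1064 TPM in siControl and 1042 and 1102 TPM in siCNOT4. Its groups overlapped, and siControl replicate 1 was the lowest library, the reverse of the order seen in most of these genes. RFC1, the largest clamp loader subunit, was measured at 55.4 and 30.5 TPM in siControl and 80.1 and 72.1 TPM in siCNOT4, above in both siCNOT4 libraries, with a log2 fold change of 0.87 (SE 0.30) and a limma adjusted p of 0.0854. RFC4, 1 of the small subunits, was measured at 73.8 and 83.7 TPM in siControl and 105 and 114 TPM in siCNOT4, and RFC3 at 79.2 and 50.6 TPM in siControl and 91.0 and 88.6 TPM in siCNOT4. In both, the siCNOT4 libraries lay above, with siControl replicate 2 the outlying low value in RFC3. RFC5 was measured at 105 and 79.4 TPM in siControl and 95.4 and 91.6 TPM in siCNOT4, where the siCNOT4 libraries fell between those of siControl. RFC2 was measured at 205 and 219.9 TPM in siControl and 192 and 194 TPM in siCNOT4, the 1 gene of the 39 with both siCNOT4 libraries below. Log2 fold changes were 0.15 (SE 0.14) for PCNA, 0.47 (SE 0.17) for RFC4, 0.50 (SE 0.24) for RFC3, 0.033 (SE 0.19) for RFC5 and -0.14 (SE 0.14) for RFC2, and the limma adjusted p of RFC2 was 0.459.

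Of the lagging-strand finishing enzymes, FEN1, the nuclease that trims flaps, was measured at 104 and 110.1 TPM in siControl and 144 and 159 TPM in siCNOT4. LIG1, the ligase that seals the nicks, was measured at 85.0 and 74.9 TPM in siControl and 104 and 108 TPM in siCNOT4. In both genes all siCNOT4 values exceeded all siControl values. The log2 fold changes were 0.49 (SE 0.15) and 0.40 (SE 0.17), with limma adjusted p of 0.0725 and 0.120. A processed pseudogene matches 50.04% of the FEN1 transcript at 95.0% identity.

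The nucleotide supply genes split by gene. TK1, the thymidine salvage kinase of S phase, was measured at 90.2 and 87.4 TPM in siControl and 128 and 141 TPM in siCNOT4. Its siControl libraries agreed closely and both siCNOT4 libraries were above, for a log2 fold change of 0.59 (SE 0.16) and a limma adjusted p of 0.0558. With the length and GC trend removed it passed the test (0.49, adjusted p 0.0265), while under TMM scaling its value was -0.0064. RRM1, the large subunit of ribonucleotide reductase, was measured at 191 and 141 TPM in siControl and 234 and 221 TPM in siCNOT4, and RRM2, the small subunit made in S phase, at 230.0 and 122 TPM in siControl and 192 and 198 TPM in siCNOT4. RRM1 was above in siCNOT4, and RRM2 overlapped because siControl replicate 1 was the highest library. SLC29A1, a nucleoside transporter of the plasma membrane, was measured at 102 and 62.1 TPM in siControl and 65.3 and 70.0 TPM in siCNOT4, where siControl replicate 1 stood apart above the other libraries. Their log2 fold changes were 0.47 (SE 0.19), 0.22 (SE 0.29) and -0.24 (SE 0.26). SLC29A1 had the lowest value of the 39 genes, and it was the 1 member that passed under TMM scaling, as lower (-0.83, limma adjusted p 0.0432).

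Of the G1/S regulators, CCNE2, encoding cyclin E2, was measured at 25.4 and 16.8 TPM in siControl and 39.7 and 38.6 TPM in siCNOT4, above in both siCNOT4 libraries, with a log2 fold change of 0.89 (SE 0.27) and a limma adjusted p of 0.0674. INTS8, a gene on the opposite strand whose transcript shares 48.9% of the CCNE2 transcript, was measured at 22.6 and 16.3 TPM in siControl and 43.0 and 44.7 TPM in siCNOT4 and rose by 1.15 (SE 0.25), at a limma adjusted p of 0.0426. Without knowing whether the counting used strand, reads of these 2 genes cannot be told apart where they overlap. CCNE1, encoding cyclin E1, was measured at 56.0 and 58.0 TPM in siControl and 66.8 and 70.0 TPM in siCNOT4, a small shift in which both siCNOT4 libraries were above. E2F1, the transcription factor that drives many of these genes, was measured at 76.3 and 74.4 TPM in siControl and 72.1 and 86.1 TPM in siCNOT4, where the groups overlapped. The log2 fold changes were 0.26 (SE 0.17) for CCNE1 and 0.064 (SE 0.18) for E2F1.

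The pair that keeps DNA methylation through replication did not share a pattern. DNMT1, the maintenance methyltransferase, was measured at 67.2 and 36.1 TPM in siControl and 89.1 and 98.1 TPM in siCNOT4, above in both siCNOT4 libraries, with a log2 fold change of 0.91 (SE 0.30) and a limma adjusted p of 0.0808. UHRF1, which recruits DNMT1, was measured at 23.5 and 11.4 TPM in siControl and 13.9 and 15.8 TPM in siCNOT4. Its siCNOT4 values lay between the siControl values, and the log2 fold change was -0.14 (SE 0.38). A processed pseudogene matches 35.9% of the UHRF1 transcript at 99.4% identity.

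Because the siControl libraries differed, each count was set beside the same without 1 library. Without siControl replicate 1, 33 members passed the test (background 79.6%), and without siControl replicate 2, 21 did (background 57.5%). Without siCNOT4 replicate 1 or 2, 0 members passed by limma (backgrounds 3.35% and 3.17%). Members with the siCNOT4 libraries above numbered 33 without siControl replicate 1 (background 80.8%), 26 without replicate 2 (70.2%), 29 without siCNOT4 replicate 1 (71.9%) and 26 without replicate 2 (69.0%). The members' median moved to 0.52 when siControl replicate 1 was left out and to 0.25 when replicate 2 was. The log2 fold change moved by over 1.5 times, or changed sign, in at least 1 of these 4 fits for 29 of the 39 genes. From the fit without siControl replicate 2 to the fit without replicate 1, it ran from 0.93 to 1.87 for GINS4, 0.40 to 1.30 for MCM10, 0.47 to 1.35 for DNMT1, 0.45 to 1.29 for RFC1, 0.67 to 1.40 for PRIM2 and 0.029 to 0.83 for ORC1. It moved by under 1.5 times for CDC6.

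The direction of many members turned with the scaling. The median of all features was 0.50 as deposited, -0.042 under TMM scaling, -0.062 after median centring, 0.019 after quantile normalization and -0.0020 with the length and GC trend removed, and the members' median was 0.43, -0.17, -0.14, 0.11 and -0.13. Under TMM scaling both siCNOT4 libraries were above for 6 members (15.4%, background 31.7%) and below for 22 (56.4%, background 38.2%). After median centring these were 7 (17.9%, background 31.2%) and 14 (35.9%, background 36.9%). After quantile normalization they were 17 (43.6%, background 36.2%) and 10 (25.6%, background 33.4%), and with the trend removed 8 (20.5%, background 35.4%) and 18 (46.2%, background 36.4%). Whether the members' shares differ from those of all features was not tested. Called members numbered 1 under TMM scaling (SLC29A1, background 9.90%) and 0 after median centring (background 3.82%). After median centring 9 members were at an unadjusted limma p under 0.05, as were 4730 of all 14208 features. After quantile normalization 2 members were called (CDC6 and GINS4, background 15.3%). With the trend removed 3 were called (GINS4 and TK1 higher and CDT1 lower, background 24.7%). Of all calls, 89.7% were higher as deposited, 41.6% under TMM scaling, 44.9% after median centring, 46.4% after quantile normalization and 46.6% with the trend removed.

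Some members kept their side through every scaling. Both siCNOT4 libraries were above both siControl libraries in all 5 scalings for CDC6, MCM10, GINS4, PRIM2, CCNE2 and DNMT1. These are 6 of the 39 genes (15.4%), where 24.1% of all features did the same. RFC2 (2.56% of the 39) was below in all 5, where 10.1% of all features were. Both shares lie under those of all features, and whether they differ was not tested. The fold changes of the 6 genes ran from 0.37 to 1.05 for CDC6, 0.26 to 0.85 for MCM10, 0.80 to 1.40 for GINS4, 0.44 to 1.03 for PRIM2, 0.10 to 0.89 for CCNE2 and 0.32 to 0.91 for DNMT1. GINS4 thus kept a difference of 0.80 or more in each of these scalings. RFC2 ran from -0.74 under TMM scaling to -0.14 as deposited.

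**Figure D3:**
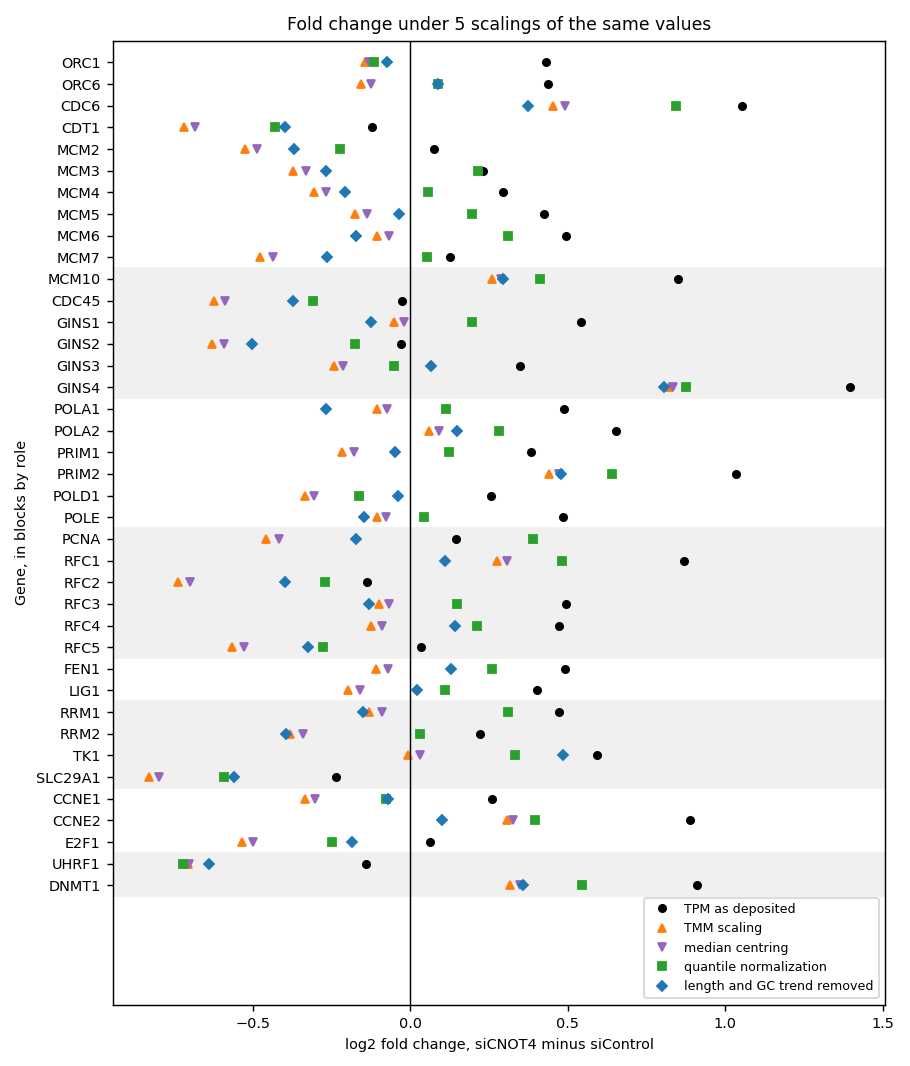
Log2 fold change, siCNOT4 minus siControl, of the 39 genes under 5 scalings of the same values, with 1 marker for each scaling. The black points as deposited lie to the right of the triangles of TMM scaling and median centring in every row, and GINS4 stays at 0.80 or more throughout.

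Ratios between partners within a library do not change when all TPM of that library are multiplied by a common factor. Quantile normalization and removal of the length and GC trend do not shift all genes alike, so they can change such ratios. The ratios below are of TPM as deposited. A set of 42 pairs was formed within complexes or between factors that act together, and each ratio was written with the gene that stood relatively higher in siCNOT4 on top, except RFC4 to RFC3, whose log2 difference was -0.025. The groups did not overlap for 31 pairs (73.8%), where 70.2% of all pairs of tested features in the members' TPM range did not overlap. The log2 difference exceeded the gap between replicates in both groups for 23 pairs (54.8%), with a background of 51.6%. Pairs that share a gene are not independent, and the shares are near the background.

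The ratio of CDC6 to CDT1 came to 1.11 and 1.07 in siControl and 2.57 and 2.38 in siCNOT4, a log2 difference of 1.18 where replicate 1 minus replicate 2 was 0.042 in siControl and 0.11 in siCNOT4. Both siControl libraries had about equal TPM of these loading factors, and both siCNOT4 libraries had more CDC6 than CDT1. The ratio of DNMT1 to UHRF1 came to 2.86 and 3.16 in siControl and 6.41 and 6.22 in siCNOT4, a log2 difference of 1.07 with replicate differences of -0.15 and 0.044. Again the replicates of each group lay close together and the groups far apart.

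Within the GINS complex, all 6 ratios kept the groups apart and exceeded both gaps. GINS4 to GINS2 came to 0.107 and 0.0489 in siControl and 0.211 and 0.196 in siCNOT4, a log2 difference of 1.49 beside a siControl gap of 1.13. GINS4 to GINS3 came to 0.440 and 0.252 in siControl and 0.754 and 0.683 in siCNOT4, and GINS1 to GINS2 came to 0.328 and 0.231 in siControl and 0.420 and 0.404 in siCNOT4. GINS4 stood higher against each of its partners in siCNOT4 and GINS2 lower against each, with siControl replicate 2 always farthest from siCNOT4. In the polymerase alpha-primase complex, PRIM2 to POLA1 came to 0.794 and 0.771 in siControl and 1.12 and 1.18 in siCNOT4, a log2 difference of 0.56 with replicate differences of 0.043 and -0.079. PRIM2 to PRIM1 came to 0.410 and 0.320 in siControl and 0.555 and 0.597 in siCNOT4. In all, 4 of the 6 ratios of that complex did not overlap, and 3 exceeded both gaps.

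In the clamp loader, 7 of 10 ratios did not overlap and 5 exceeded both gaps. RFC4 to RFC2 came to 0.359 and 0.381 in siControl and 0.546 and 0.588 in siCNOT4, a log2 difference of 0.62 with replicate differences of -0.085 and -0.11, and RFC1 to RFC2 came to 0.270 and 0.139 in siControl and 0.416 and 0.371 in siCNOT4. The first pair had close replicates, and in the second the siControl libraries differed by 0.96. In the MCM2-7 ring, 10 of 15 ratios did not overlap and 6 exceeded both gaps. MCM6 to MCM7 came to 0.553 and 0.513 in siControl and 0.721 and 0.660 in siCNOT4, and MCM6 to MCM2 came to 1.42 and 1.54 in siControl and 2.05 and 1.91 in siCNOT4. MCM6 and MCM5 stood higher against MCM2, MCM3 and MCM7 in both siCNOT4 libraries, by log2 differences of 0.20 to 0.42. CCNE2 to CCNE1 came to 0.454 and 0.290 in siControl and 0.595 and 0.551 in siCNOT4, with a siControl gap of 0.65 almost equal to the log2 difference of 0.66. RRM1 to RRM2 overlapped and came to 0.829 and 1.16 in siControl and 1.22 and 1.12 in siCNOT4.

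**Figure D4:**
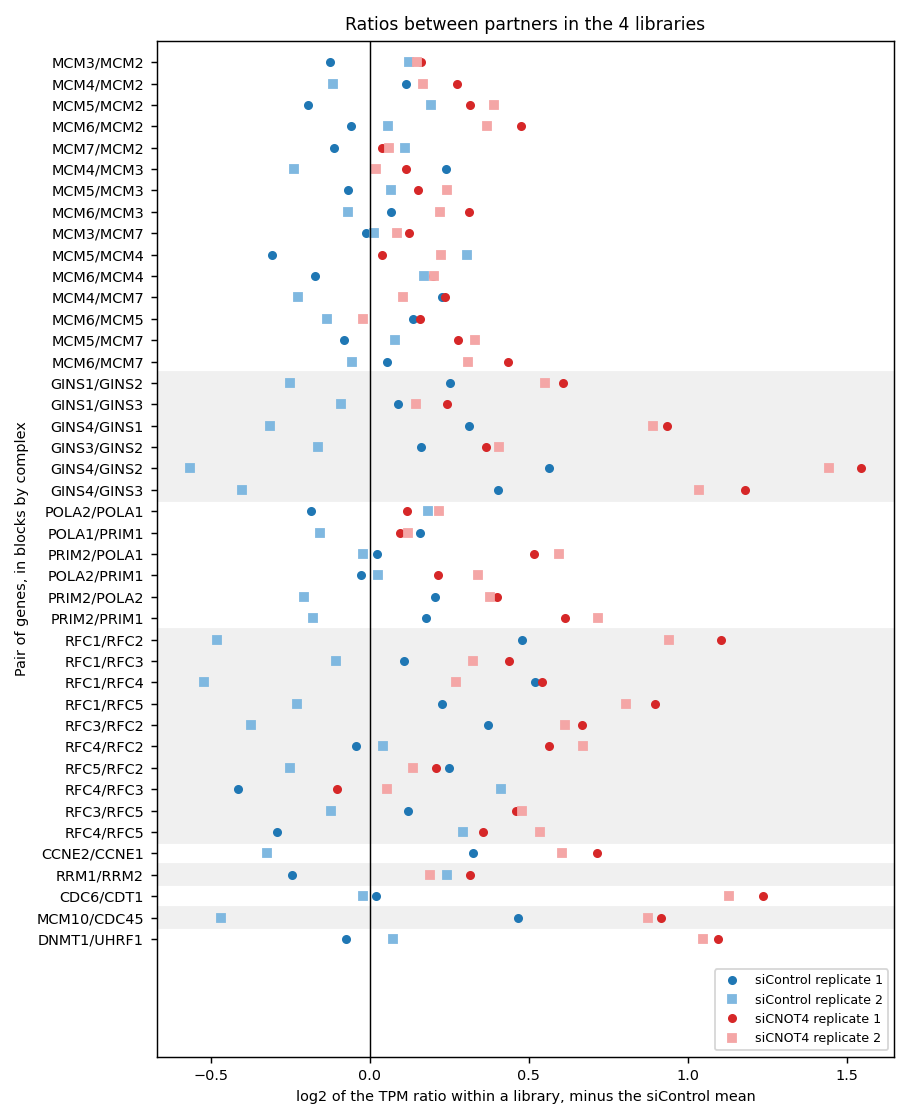
Log2 of the TPM ratio of 2 genes within each library, minus the siControl mean, for 42 pairs in blocks by complex (blue siControl, red siCNOT4, circles replicate 1, squares replicate 2). The red points of CDC6/CDT1 and DNMT1/UHRF1 stand more than 1 unit right of the siControl mean. The blue points of these pairs lie close together, while those of the GINS4 and RFC1 ratios lie far apart.

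The gap between the siControl libraries moved with transcript length among the members. Reference transcripts of GENCODE 29 gave lengths of 1359 to 7840 nt. In the 13 shortest genes the median log2 difference of siControl replicate 1 over replicate 2 was 0.045, in the middle 13 it was 0.38, and in the 13 longest 0.65. The median siCNOT4 minus siControl difference of the same groups was 0.35, 0.40 and 0.49, and the siCNOT4 replicates differed by -0.081, -0.029 and -0.083. The spread within these groups was wide, as for PRIM2, among the shortest with 2308 nt and a siControl difference of 0.73, and CDC6, among the longest with 4810 nt and 0.30. Spearman's rho of length across the 39 genes was 0.58 with the siControl difference and 0.33 with the fold change, and across 12874 coding genes 0.65 and 0.40. GC3, the percentage of coding triplets with G or C at the third position, had a rho of -0.54 with the fold change across the 39 genes, against -0.34 across all coding genes. GC3 had a rho of -0.70 with the difference between the siCNOT4 replicates, against -0.47 across all coding genes. These are descriptions across genes that share the same 4 libraries, and genes are not independent replicates. The part of length and of GC3 in the fold changes was not tested.

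**Figure D5:**
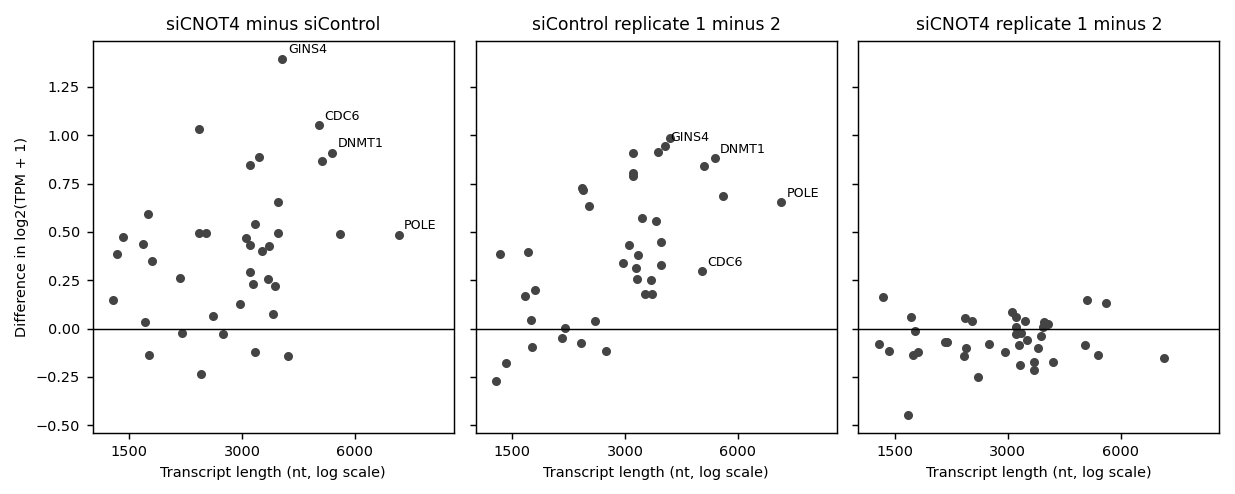
Difference in log2(TPM + 1) against transcript length (log axis, nt) for the 39 genes: siCNOT4 minus siControl on the left, siControl replicate 1 minus 2 in the middle and siCNOT4 replicate 1 minus 2 on the right. The middle panel rises from near 0 for the shortest genes to 0.65 for the median of the longest 13, and the right panel stays near 0.

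A wider list of 82 replication and G1/S genes, of which 81 were tested, gave 9 calls (11.1%, beside 12.6% of all features), 8 higher and 1 lower, and a median log2 fold change of 0.43. Near the licensing step, MCM8, a helicase of recombination and replication, was measured at 38.4 and 18.0 TPM in siControl and 79.1 and 83.1 TPM in siCNOT4, and GMNN, encoding the CDT1 inhibitor geminin, at 232 and 235 TPM in siControl and 329 and 359.6 TPM in siCNOT4. Both rose, by 1.58 (SE 0.35) and 0.55 (SE 0.14) on the log2 scale. At the fork, TIPIN, a fork protection factor, was measured at 79.1 and 74.1 TPM in siControl and 136 and 144 TPM in siCNOT4, and CHTF8, a subunit of an alternative clamp loader, at 76.4 and 69.3 TPM in siControl and 126 and 125 TPM in siCNOT4. Both rose, by 0.86 (SE 0.16) and 0.78 (SE 0.16). ASF1A, a histone chaperone of replicated chromatin, was measured at 31.7 and 21.4 TPM in siControl and 59.4 and 57.8 TPM in siCNOT4, and CMPK1, a pyrimidine nucleotide kinase, at 68.5 and 43.1 TPM in siControl and 119 and 119 TPM in siCNOT4. They rose by 1.14 (SE 0.25) and 1.12 (SE 0.25). In all 6 genes the groups were apart, and in MCM8, ASF1A and CMPK1 siControl replicate 2 was far under replicate 1.

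Among the regulators of the wider list, RBL1, encoding the pocket protein p107, was measured at 15.7 and 6.09 TPM in siControl and 35.4 and 34.6 TPM in siCNOT4 and rose by 1.73 (SE 0.42). CDKN2D, an inhibitor of CDK4 and CDK6, was measured at 6.18 and 5.25 TPM in siControl and 13.5 and 16.8 TPM in siCNOT4 and rose by 1.26 (SE 0.28). CDKN2A, which encodes the inhibitor p16 and the p53 regulator ARF, was measured at 91.3 and 96.5 TPM in siControl and 38.9 and 41.5 TPM in siCNOT4. It was the single gene of the list called lower, at a limma adjusted p of 0.0244 and a log2 fold change of -1.20 (SE 0.18). Of the 81 tested genes of the list, 15 had a negative fold change. CDKN1A, encoding the inhibitor p21, was measured at 225 and 157 TPM in siControl and 211 and 224 TPM in siCNOT4, where the groups overlapped, with a limma adjusted p of 0.433 for a difference of 0.21 (SE 0.20). The adjusted p of the 8 higher genes ran from 0.0322 to 0.0492. When 1 library was left out, the calls of the wider list moved as those over all features did. They rose without a siControl library and fell without a siCNOT4 library. The list had 2 calls with a pseudocount of 0.1 (background 3.93%), 2 with no filter (4.60%) and 1 among features of at least 5 TPM (1.29%). It had 5 under TMM scaling (9.90%), 3 after median centring (3.82%), 19 after quantile normalization (15.3%) and 23 with the trend removed (24.7%).

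Mitosis genes, the cell cycle group most like this one, had a median log2 fold change of 0.42 over 40 genes, with 9 called (22.5%), all higher, where 12.6% of all features were called and 11.3% as higher. ANLN, a cytokinesis scaffold, was measured at 80.6 and 49.6 TPM in siControl and 169 and 154 TPM in siCNOT4, and rose by 1.34 (SE 0.25). KIF11, a spindle motor, was measured at 62.1 and 40.4 TPM in siControl and 124 and 116 TPM in siCNOT4, and rose by 1.24 (SE 0.24). HMMR, a spindle assembly factor, was measured at 70.3 and 48.5 TPM in siControl and 147 and 123 TPM in siCNOT4, and rose by 1.19 (SE 0.23). These had the largest fold changes among the 9, and in each the groups were apart. After median centring 0 of the 40 passed by limma (background 3.82%). At an unadjusted limma p under 0.05 there were 11 of the 40, and 4730 of all 14208 features. Under TMM scaling 2 passed (background 9.90%), after quantile normalization 11 (15.3%) and with the trend removed 10 (24.7%). Leaving out 1 library moved the calls of the mitosis list as it moved those over all features, up without a siControl library and down without a siCNOT4 library. Whether the share called differs between the mitosis and the replication genes was not tested.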

How the data were processed

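Poly(A)-selected, stranded RNA libraries were made from total RNA of 4 HEK293 samples, 2 siControl and 2 siCNOT4, per the labels' protocols. The authors deposited 1 table of TPM for each library, per the file headers. Each sums to 1000000 over 20457 features named by gene symbol. The submitters' processing notes name hg19, FastQC 0.11.2, STAR 2.5.3a and featureCounts. The annotation and the strand setting are not given in the sources used here. TPM keeps no read totals, so the depth is unknown and no counting interval is given.

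TPM was transformed to log2(TPM + 1), which understates changes of low genes, and features with a mean of at least 1 TPM were kept (14208, all 39 members among them). The siCNOT4 minus siControl difference was fitted by lmFit and eBayes with a trend in limma 3.58.1 under R 4.3.3, over all kept features, with Benjamini-Hochberg adjustment and a threshold of 0.05. There was no block, since shared replicate numbers are not stated to mark a day. With no statement that libraries came from separate cultures, p-values measure only the spread between these samples. An exact permutation test of 2 against 2 cannot go below a two-sided p of 0.3333, so none was used. The fit was tested on simulated data drawn without the shift between the siControl libraries, so the effect of that shift was not tested. The 2 symbols listed more than once were kept as separate features. The list of markers of other cell types held 1 more, which is not reported here.

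The members, the lists and the tests were chosen with earlier results of these data known. Named are all members, CNOT4, called genes of the wider list with CDKN1A, and the 3 largest called mitosis genes. INTS8 was named after its overlap with CCNE2 was seen, and the partner ratios, from TPM without a pseudocount, were chosen after the data were seen. Alternatives were a pseudocount of 0.1, no filter, a filter at 5 TPM, TMM scaling (computed on TPM, trimming 30% of ratios and 5% of levels), median centring, quantile normalization, removal of each library's trend with transcript length and GC (13743 features), a replicate block, and leaving out each library. Lengths, GC and GC3 came from GENCODE 29 transcripts, matched by symbol (18438) or synonym (969), with 1048 unmatched. Transcripts sharing sequence were those of at least 90% identity over at least 20% of the member. Promoters came from RefSeq (GRCh38.p14), and their coordinates are of that assembly, not of hg19. Scripts used Python 3.11.15, pandas 2.3.3 and scipy 1.17.1.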

Additional observations from a re-analysis of the deposited data

How the results depend on the processing

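The limits of these data are 2 libraries a group, siControl libraries that differ from each other by more than the siCNOT4 ones, and TPM tables that hold no read depth. Another pseudocount, no filter and a stricter filter kept the direction and the side of the threshold of all 39 members. Calls over all features numbered 1792, and 558 with a pseudocount of 0.1, 908 with no filter, 147 among features of at least 5 TPM, 543 after median centring and 3401 with the length and GC trend removed. With these alternatives in the same order, the wider list had 2, 2, 1, 3 and 23 calls. It had 5 under TMM scaling (background 9.90%) and 19 after quantile normalization (background 15.3%). The mitosis list had 2, 1, 1 and 0 calls in the first 4 of these alternatives and 2 under TMM scaling. Called members were 0 after median centring (background 3.82%), 2 after quantile normalization (15.3%) and 3 with the trend removed (24.7%). Members with both siCNOT4 libraries above, alternatives chosen after seeing the data, were 6 under TMM scaling (15.4%, background 31.7%) and 7 after median centring (17.9%, background 31.2%). They were 17 after quantile normalization (43.6%, background 36.2%) and 8 with the trend removed (20.5%, background 35.4%). The members' median was -0.17 under TMM scaling, -0.14 after median centring, 0.11 after quantile normalization and -0.13 with the trend removed. CNOT4 passed the test under these 4 scalings, at -0.997, -1.07, -1.15 and -1.14.

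Under TMM scaling 25 members changed sign, with log2 fold changes of -0.14 for ORC1, -0.16 for ORC6, -0.52 for MCM2, -0.37 for MCM3, -0.31 for MCM4, -0.17 for MCM5, -0.11 for MCM6, -0.48 for MCM7, -0.053 for GINS1, -0.24 for GINS3, -0.11 for POLA1, -0.22 for PRIM1, -0.33 for POLD1, -0.11 for POLE, -0.46 for PCNA, -0.10 for RFC3, -0.13 for RFC4, -0.57 for RFC5, -0.11 for FEN1, -0.20 for LIG1, -0.13 for RRM1, -0.38 for RRM2, -0.0064 for TK1, -0.34 for CCNE1 and -0.53 for E2F1. After median centring 24 did, with -0.13 for ORC1, -0.12 for ORC6, -0.49 for MCM2, -0.33 for MCM3, -0.27 for MCM4, -0.14 for MCM5, -0.067 for MCM6, -0.44 for MCM7, -0.019 for GINS1, -0.21 for GINS3, -0.075 for POLA1, -0.18 for PRIM1, -0.30 for POLD1, -0.077 for POLE, -0.42 for PCNA, -0.066 for RFC3, -0.089 for RFC4, -0.53 for RFC5, -0.070 for FEN1, -0.16 for LIG1, -0.091 for RRM1, -0.34 for RRM2, -0.30 for CCNE1 and -0.50 for E2F1. After quantile normalization 7 did, with -0.12 for ORC1, -0.22 for MCM2, -0.050 for GINS3, -0.16 for POLD1, -0.28 for RFC5, -0.078 for CCNE1 and -0.25 for E2F1. With the trend removed 19 did, with -0.074 for ORC1, -0.37 for MCM2, -0.27 for MCM3, -0.21 for MCM4, -0.036 for MCM5, -0.17 for MCM6, -0.26 for MCM7, -0.13 for GINS1, -0.27 for POLA1, -0.048 for PRIM1, -0.041 for POLD1, -0.15 for POLE, -0.17 for PCNA, -0.13 for RFC3, -0.32 for RFC5, -0.15 for RRM1, -0.40 for RRM2, -0.071 for CCNE1 and -0.19 for E2F1. TMM scaling and median centring lower every difference by construction, since the median of all features moves from 0.50 to near 0, and the cause of the rest was not tested.

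Leaving out 1 library at a time moved the calls over all features between 450 and 11311, the called members between 0 and 33, the wider list between 0 and 66 and the mitosis list between 0 and 36. The largest counts came without siControl replicate 1 and the smallest without a siCNOT4 replicate. In each such fit the lone library of a group is assumed to vary like the other group's pair. The members' median ran from 0.25 to 0.52, and CNOT4 from -0.70, where it passed, to -0.32. Sign changes occurred for 11 members, whose values ran from -0.25 to 0.0056 for CDT1, -0.20 to 0.35 for MCM2, -0.10 to 0.69 for MCM4, -0.044 to 0.29 for MCM7, -0.059 to 0.0084 for CDC45, -0.088 to 0.030 for GINS2, -0.17 to 0.23 for RFC5, -0.24 to 0.68 for RRM2, -0.59 to 0.12 for SLC29A1, -0.062 to 0.19 for E2F1 and -0.63 to 0.35 for UHRF1.

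The replicate numbers are shared by the groups but nothing ties same-numbered libraries, and the 2 pairs deviated together with a correlation of 0.17. With a replicate block, 3655 of all 14208 features passed. So did 6 of the 39 members (CDC6, MCM10, GINS4, PRIM2, RFC1 and DNMT1), 21 of 81 tested genes of the wider list and 13 of 40 mitosis genes. Whether these shares differ was not tested.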
